A study of Rattus norvegicus with 6 samples.

Results

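The circular RNAs (circRNAs) described here are the 78 whose signal lay clearly lower on every array from hypoxic rat lung than on every array from normoxic lung, out of 14145 circRNA probes on the array. They were selected by their measured values: a probe had to be well above background on all 6 arrays, which 10911 were, and its lowest normoxia level had to exceed its highest hypoxia level by at least 0.4 on the log2 scale. A level is the log2 processed signal of the probe minus the log2 75th percentile of all non-control spots on that array, so a level of 0 means a probe as bright as that percentile. The distance between the lowest normoxia and the highest hypoxia level is called the gap. Because these values chose the members, the direction of their difference and its presence on all arrays are given by the choice and are described without a test. The 78 are 0.715% of the 10911 eligible probes.

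Lungs came from male rats aged 6 weeks. In the hypoxia group 3 arrays were made from rats kept in 10% oxygen for 21 days, a chamber model of pulmonary arterial hypertension, and in the normoxia group 3 arrays were made from rats kept in normal air for the same time. The lungs were perfused with buffered saline, and the RNA was treated with RNase R before it was copied with random primers and labelled with Cy3, per the labels' protocols. The labels do not say that each array came from a different animal, so the spread between arrays may be technical. In whole lung, fewer cells of a type that makes a circRNA and less of it per cell cannot be told apart.

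A circRNA forms when the splicing machinery joins the end of an exon back to the start of the same or an earlier exon, which closes the RNA into a ring. With no free end it resists exonucleases such as RNase R and often outlasts the linear messenger RNA of the same gene, so its level reflects transcription of the host gene, the share of back-splicing and slow loss. Some circRNAs bind microRNAs or proteins, while most have no known function. The probes carry only the manufacturer's identifiers. The files used here do not pair these identifiers with a host gene, a genome position or a probe sequence, so the members are named by identifier alone, and neither their sequences nor the function of their host genes can be given.

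The arrays differed in overall brightness. The 75th percentile of the signal was 102.1, 171.4 and 92.6 on normoxia arrays 1 to 3 and 160.0, 167.6 and 126.6 on hypoxia arrays 1 to 3 (exact permutation p = 0.40, two-sided, 0.60 after adjustment over 3 array measures). The median background was 20 on each normoxia array and 19, 18 and 18 on the hypoxia arrays (exact permutation p = 0.10, the smallest that 3 against 3 allows, 0.30 after adjustment). The number of circRNA probes well above background ranged from 11287 to 12266 per array (exact permutation p = 0.90). None of the lung cell markers looked for was among the genes of the 39 linear transcript probes with a symbol, so the tissue label was not checked against them.

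Most of the members lay only a little beyond the limit, and a few stood far from it. The gap was 0.4 to under 0.5 for 35 members, 0.5 to under 0.6 for 18, 0.6 to under 1 for 16 and 1 or more for 9. The median gap was 0.51 and the widest 4.17. The mean level in hypoxia was between 1.42-fold and 36.2-fold below that in normoxia, with a median of 1.96-fold. It was 8-fold or more below in 4 members, 4-fold or more in 6, 2-fold or more in 38 and under 2-fold in 40. The median difference between hypoxia and normoxia was -0.97 over the members and -0.017 over all 10911 eligible probes.

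The widest gap belonged to ASCRPR007618. Its level was 2.51, 1.67 and 2.29 on normoxia arrays 1 to 3 and -2.85, -3.71 and -2.51 on hypoxia arrays 1 to 3. In normoxia it ranked at the 93.6th percentile of all circRNA probes on average and in hypoxia at the 26.8th, so an RNA among the brighter ones in normoxic lung lay among the dimmer ones in hypoxic lung. The difference was -5.18 (limma SE 0.36), or 36.2-fold, and the processed signal before scaling was 583.4, 543.9 and 451.8 against 22.2, 12.8 and 22.2. With so small a signal left in hypoxia, the size of the difference depended on the background treatment: it was -2.88 after normexp correction with an offset of 50 and -3.71 in the deposited log2 values.

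ASCRPR002682 was more even within each group. Its level was 1.52, 1.28 and 1.64 in normoxia and -2.66, -2.68 and -2.57 in hypoxia. Its processed signal was 292.2, 415.2 and 288.2 against 25.4, 26.1 and 21.3, so the evenness in hypoxia was read at a small signal. The hypoxia arrays differed from each other by little beside the 17.3-fold difference between the groups (log2 difference -4.11, limma SE 0.16). That difference was -2.12 after normexp correction with an offset of 50 and -2.81 in the deposited log2 values. ASCRPR011989 followed the same pattern at a lower brightness, with 0.66, 0.34 and 0.88 in normoxia and -3.06, -2.93 and -2.80 in hypoxia. Its processed signal was 161, 217.2 and 170.8 against 19.1, 22 and 18.1. Its difference was -3.56 (limma SE 0.19), and normexp correction with an offset of 50 left -1.40. Both lay above the 75th percentile of the array in normoxia and near the dim end in hypoxia, where their mean rank among all circRNA probes was at percentiles 31.0 and 27.3.

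ASCRPR007899 remained clearly measurable in hypoxia. Its level was 3.03, 2.48 and 2.93 in normoxia and -0.50, -0.65 and -0.063 in hypoxia, and its processed signal was 834.8, 959.3 and 704.3 against 113.4, 106.9 and 121.3. The difference of -3.22 (limma SE 0.23) moved less with the background treatment than those of the dimmer members, to -2.61 with normexp and that offset and to -3.18 in the deposited log2 values.

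Of the 9 members with a gap of 1 or more, the other 5 are named here after their values were seen. ASCRPR013987 had levels of 3.25, 1.94 and 3.16 in normoxia and 0.23, -0.28 and 0.16 in hypoxia. Normoxia 2 was lower than the other normoxia arrays, and still above all hypoxia arrays. ASCRPR012440 had -0.95, -0.93 and -0.86 in normoxia and -2.83, -2.60 and -2.60 in hypoxia, and ASCRPR004233 had -1.69, -1.41 and -1.46 against -3.65, -3.33 and -3.49. In normoxia they ranked on average at the 58.6th and 47.5th percentile of all circRNA probes, and in hypoxia at the 30.6th and 21.3th. Both were even within each group. ASCRPR008680 had -0.29, -0.30 and -0.59 in normoxia and -1.87, -2.94 and -2.90 in hypoxia. Here hypoxia 1 stood above the other hypoxia arrays. ASCRPR007207 had 1.30, 1.32 and 1.22 in normoxia and -0.79, 0.027 and -0.40 in hypoxia, with the spread almost all on the hypoxia side.

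The members brightest in normoxia had differences from -0.96 to -1.81 on much stronger signals. ASCRPR011000 was the brightest, at the 99.7th percentile of circRNA probes in normoxia, with levels of 6.64, 5.001 and 6.33 and then 4.58, 4.30 and 4.23 in hypoxia. Its processed signal was 10198.5, 5490.8 and 7431.3 in normoxia and 3816.3, 3301.1 and 2369.4 in hypoxia, a 3.08-fold difference of means on the log2 scale (-1.62, limma SE 0.41). Normoxia 2 lay closest to the hypoxia arrays, and the RNA was still at the 98.9th percentile in hypoxia.

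ASCRPR009085 had the same shape, with 4.07, 2.74 and 4.36 in normoxia against 1.63, 1.79 and 2.32 in hypoxia, and normoxia 2 was again the lowest of its group. ASCRPR013438 had 3.93, 3.53 and 4.05 against 3.05, 2.91 and 2.67, a 1.94-fold difference. ASCRPR007710 had 3.74, 3.39 and 3.67 against 2.65, 2.43 and 2.15, a 2.28-fold difference. The gap was narrower than the range of the normoxia arrays in ASCRPR011000, ASCRPR009085 and ASCRPR013438, and wider than it in ASCRPR007710.

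At the dim end, the members with the lowest hypoxia levels were ASCRPR006362 and ASCRPR008396. ASCRPR006362 had -3.16, -3.35 and -3.40 in normoxia and -4.06, -3.91 and -3.89 in hypoxia. Its processed signal was 11.4, 16.8 and 8.8 in normoxia and 9.6, 11.1 and 8.5 in hypoxia, so before scaling the arrays of the groups overlapped. ASCRPR008396 had -2.73, -3.31 and -3.21 against -4.05, -3.91 and -3.85, and its processed signal of 15.4, 17.2 and 10.0 against 9.7, 11.1 and 8.8 overlapped too. Under normexp correction with an offset of 50 the difference turned positive in both, at 0.14 and 0.16. The median over the 12024 circRNA probes well above background on at least 3 arrays was 0.10 under that correction, against -0.020 in the levels used here.

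Probes on either side of the limit of 0.4 had almost the same gap. Just inside it were ASCRPR000477, with a gap of 0.401 and levels of -2.05, -2.78 and -2.26 in normoxia against -3.18, -3.28 and -3.30, and ASCRPR006515, with a gap of 0.408 and levels of -0.40, -0.29 and -0.26 against -1.31, -0.80 and -0.99. Just outside it were ASCRPR009592, with a gap of 0.397 and levels of 1.94, 1.40 and 1.52 against 0.54, 1.004 and 1.01, and ASCRPR004642, with a gap of 0.395 and levels of -1.55, -2.58 and -1.95 against -2.97, -3.01 and -3.07.

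The same rule was applied to every other way of dividing the 6 arrays into 3 and 3, as a count with no test. In the opposite direction, higher on all hypoxia arrays than on all normoxia arrays, it found 78 probes as well. The 18 other divisions, each direction counted, found from 1 to 295 probes with a median of 5. One of them exceeded the count of 78: the probes higher on normoxia 2, hypoxia 2 and hypoxia 3 than on normoxia 1, normoxia 3 and hypoxia 1 numbered 295, and those with the reverse pattern 57. Those higher on normoxia 2, normoxia 3 and hypoxia 2 numbered 69. A division that cuts across the oxygen groups thus held more probes past the same limit than the division by oxygen did.

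Normoxia 2 bounded the gap most often. It was the lowest normoxia array for 51 of the 78 members, or 65.4%, and for 42.9% of all eligible probes. Normoxia 1 was the lowest for 11 members, or 14.1%, against 31.3% of eligible probes. Normoxia 3 was the lowest for 16, or 20.5%, against 25.8%. Without normoxia 2 the rule found 883 probes. It found 244 without hypoxia 1, 148 without hypoxia 2, 143 without hypoxia 3, 126 without normoxia 3 and 101 without normoxia 1, where each count also grows because fewer arrays must agree. On the hypoxia side hypoxia 1 was the highest for 31 members, hypoxia 2 for 25 and hypoxia 3 for 22. These shares of 39.7%, 32.1% and 28.2% were near those over all eligible probes, 43.9%, 29.0% and 27.1%.

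The difference between arrays of the same replicate number was smallest in the pair with number 2. The median over the members was -1.15 for hypoxia 1 against normoxia 1, -0.70 for hypoxia 2 against normoxia 2 and -0.99 for hypoxia 3 against normoxia 3. The values that chose the members give these medians, and normoxia 2 most often bounded the gap. The order of the pairs thus follows in part from the choice, and medians over all eligible probes were not computed. Normoxia 1 to 3 and hypoxia 1 shared the first row of the slide, and hypoxia 2 and 3 stood in the second row. By the choice of the members, hypoxia 1 alone lay below all normoxia arrays of its own row in each of them.

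The members were tighter within groups than the eligible probes at large, which a gap between groups favours. The median SD among the normoxia arrays was 0.22 over the members and 0.27 over all eligible probes, and that among the hypoxia arrays was 0.16 and 0.21. The normoxia SD was the larger in 53 of the 78 members, or 67.9%, and in 62.5% of the eligible probes.

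Beside the measurement error that the scanner software assigned to each spot, the gap was modest in most members. That error was near 10% of the signal for bright spots, and its median over the members ran from 10.2% on normoxia 2 to 12.0% on hypoxia 3. The gap exceeded the combined error of the lowest normoxia and the highest hypoxia spot in all 78 members, exceeded it by 2 times in 58 and by 3 times in 19. The rule required a gap of at least 0.4, so these counts follow in large part from the choice. They were not made over all eligible probes, and nothing is read from them. No member spot was saturated or marked as a non-uniform or outlying feature on any array. Of the 10911 eligible probes, 0 were saturated, 0 were marked as outlying and 21, or 0.192%, as non-uniform. These flags thus do not set the members apart. The background of 4 members was marked as outlying on some array, or 5.13%, against 5.74% of the eligible probes.

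Low signals were common among the members. When the eligible probes were ordered by their mean level over the 6 arrays and divided into 4 equal groups, the dimmest group held 32 members and the following groups 15, 16 and 15. This mean includes the hypoxia levels that the rule chose to be low, so part of the excess in the dimmest group follows from the choice. The median level of the members was -1.09 in normoxia and -2.27 in hypoxia, against -0.76 and -0.77 for all eligible probes. Across the 78 members, a brighter normoxia level went with a more negative difference (Pearson's r = -0.42, Spearman's rho = -0.49), and less so a brighter mean level over the 6 arrays (Pearson's r = -0.24, Spearman's rho = -0.39), both given as a description since the level enters the difference and the probes share the same 6 arrays. The median difference was -0.83 in the dimmest group and -1.15 in the brightest.

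The number of dim members that kept their gap varied with the background treatment. In the deposited log2 values the groups did not overlap for 74 of the 78, where 9.17% of all eligible probes lay apart in this direction. A gap of 0.4 or more was kept by 22 of the 78, where 0.275% of all eligible probes had one. In the brightest group 11 of 15 kept the gap in the deposited log2 values, and in the dimmest group 1 of 32 did. Under normexp correction with an offset of 50, which compresses differences of dim spots, 12 of 15 in the brightest group and 0 of 32 in the dimmest kept it. The mean difference turned positive in 17 of these 32. How many dim eligible probes that are not members turned positive was not counted. The median difference over the 12024 probes of the limma fit was itself 0.10 under this correction, against -0.020 in the levels used here. With no background correction the groups lay apart in 76 of the 78 and in 10.8% of the eligible probes. These shares reread the contrast that chose the members. The lower background on the hypoxia arrays moved with the group, and its part in the result was not tested.

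The scaling mattered too. In the processed signal with no scaling between arrays, the mean was lower in hypoxia for all 78 members, but the groups lay apart for 37, against 2.14% of the eligible probes. Quantile normalization left the groups apart for all 78, against 9.2% of the eligible probes. A gap of 0.4 or more was kept by 54, against 0.522% of the eligible probes. A gap of 0.4 or more held in 12 members through all 6 sets of values that put the arrays on one scale, and in 5 of these also with no scaling: ASCRPR007618, ASCRPR002682, ASCRPR011989, ASCRPR007899 and ASCRPR013987. These counts were made among the members only, with no count over all eligible probes to set beside them.

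The other 7 of the 12 are likewise named after their values were seen. Besides ASCRPR007207 and ASCRPR007710 they were ASCRPR007261, ASCRPR000694, ASCRPR001948, ASCRPR013409 and ASCRPR013195. ASCRPR007261 had 3.21, 3.11 and 2.93 in normoxia against 2.07, 1.78 and 1.95 in hypoxia, with narrow spread in both groups. ASCRPR000694 had 2.28, 1.64 and 1.77 against 0.69, 1.11 and 1.03. ASCRPR001948 had 2.54, 1.496 and 2.11 against 0.92, 0.65 and 0.99, and ASCRPR013409 had 2.45, 1.497 and 2.07 against 0.82, 0.92 and 1.02. In both, normoxia 1 was the highest and normoxia 2 the lowest normoxia array. ASCRPR013195 had 0.98, 0.71 and 1.11 against 0.20, 0.26 and 0.16, and was the dimmest of the 12 in normoxia after ASCRPR011989.

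The members were not spread evenly over the identifiers, a property that the choice did not use and that was noticed after the values were seen. Of the 78, 20 had identifier numbers from 7000 to 7999, or 25.6%, where 780 of the 10911 eligible probes, or 7.15%, did. In this range 2.56% of eligible probes were members, and the next range, 8000 to 8999, held 10 members, or 1.24%. The other full ranges of 1000 identifiers held from 2 to 7 members, at most 0.88%. With no limit on the gap the range stood out less. The groups lay apart, lower in hypoxia, for 15.0% of its eligible probes and 15.7% of those from 8000 to 8999. In the other full ranges this share ran from 6.87% to 14.2%. Within the range the 250 identifiers from 7750 to 7999 held 8 members, or 4.10% of the 195 eligible there.

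The range also held many of the wider gaps. Of the 25 members with a gap of 0.6 or more, 13 were in the range from 7000 to 7999, ASCRPR007618, ASCRPR007899, ASCRPR007207, ASCRPR007261 and ASCRPR007710 among them. The 20 members of the range had a median gap of 0.61 and a median difference of -1.10, and the 58 other members 0.50 and -0.96. Of the 12 members that kept the gap in all 6 sets of values on one scale, 5 were in the range.

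Of the 78 probes found in the opposite direction, 3 had identifiers from 7000 to 7999, or 3.85%, and of the 575 found over the 18 other divisions 41 did, or 7.13%. Among probes lower in hypoxia the share was 20.7% after normexp correction with the offset, 33.3% with quantile normalization and 26.7% in the deposited log2 values. It was 11.5% with no scaling, where it rested on 3 of 26 probes, and 9.74% in the looser set of 883 without normoxia 2. With any gap above 0 it was 10.19% of 1148 probes. The whole range moved little: the median difference over its 780 eligible probes was -0.074. That median was lower from 4000 to 4999 (-0.099), from 6000 to 6999 (-0.097) and from 8000 to 8999 (-0.086), and higher in the other ranges. What orders the identifiers is not given in the sources used here, so no position or gene is read from it.

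The spots of these 20 members reached from row 6 to row 189 and from column 3 to column 82, and their spacing in between was not measured. Over all 78, the 4 equal bands of rows held 21, 19, 18 and 20 members and the 4 bands of columns 21, 20, 20 and 17. Among the members 4 pairs had identifiers within 5 of each other, and these are named after their values were seen. How many such pairs other sets of 78 eligible probes would hold was not counted, so nothing is read from the number. ASCRPR007227 had -0.15, -0.062 and 0.051 in normoxia against -0.76, -1.40 and -1.32 in hypoxia, and ASCRPR007228, the next identifier, had -0.16, -0.34 and -0.016 against -0.83, -1.16 and -1.30. Both had their highest hypoxia level on hypoxia 1. ASCRPR004865 and ASCRPR004867 differed between the groups by -1.23 and -1.21, each with its lowest normoxia level on normoxia 2. ASCRPR000694 and ASCRPR000698 differed by -0.95 and -0.82. ASCRPR007202 and ASCRPR007207 were unlike, at -0.51 and -1.67.

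A fit across all circRNA probes gives the background for these counts and no support for them, since it reads the same contrast. Of the 10911 eligible probes, 10.5% had groups that did not overlap with the lower level in hypoxia. With limma on 12024 probes well above background on at least 3 arrays and Benjamini-Hochberg adjustment at 0.05, 6 of the 78 members were called lower, where 8 probes, or 0.0665%, were called lower in all. These 6 were ASCRPR007618, ASCRPR002682, ASCRPR011989, ASCRPR007899, ASCRPR012440 and ASCRPR004233. With the replicate number as a block 40 members were called, where 196 probes, or 1.63%, were called lower in all. Without normoxia 3 the count of members called was 2, of 4 probes called lower in all. The calls differed in how many alternative settings ended them, which rereads the same contrast on the same arrays. ASCRPR012440 and ASCRPR004233 each lost theirs in 7 of 17 alternatives, 5 and 4 of them omissions of a single array. ASCRPR007618 lost its call in 3 and ASCRPR007899 in 2. ASCRPR002682 and ASCRPR011989 each lost theirs in 1, normexp with an offset of 50.

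Among the 31 linear transcript probes that were above background on all 6 arrays, 1 met the same rule for lower levels in hypoxia and 0 met it for higher levels. These probes measure linear RNA that outlasted RNase R, so they bear on the digestion as well as on transcription.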

How the data were processed

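Per the file headers, spot intensity was extracted with Agilent Feature Extraction 11.0.1.1. Background subtraction and detrending were done within each array, with no normalization between arrays. The headers record a multiplicative detrending fit for every array except normoxia 1. Those headers name the build rn4. The authors also deposited log2 values, whose background treatment and offset are not given in the sources used here. The tool limma is listed in the submitters' processing notes without a stated use. Flags for background and outliers are those of the deposited files.

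The processed signal was scaled to the 75th percentile of non-control spots per array and put on the log2 scale. Each circRNA probe has 1 spot. Fits were made with limma 3.58.1 (lmFit, eBayes, two-sided) and the R package data.table (version 1.17.8) in R 4.3.3 and were tested on simulated data. Other values were computed in Python 3.11.15 with scipy 1.17.1. Precision is limited by the number of arrays.

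The members and lists were chosen with earlier results of these data known. Named members were the 4 with the widest gap, the 4 brightest in normoxia, the 2 lowest in hypoxia, and 2 on either side of the limit. Others are marked as chosen after their values were seen. Planned host gene lists were not used, since the files here do not pair probes with genes.

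Both groups carry replicate numbers 1 to 3. Deviations from the group means correlated by 0.55, 0.71 and 0.21 in the pairs of equal number, all over 0.1. In pairs of unequal number the correlations ran from -0.64 to 0.18, and normoxia 1 with hypoxia 3, at 0.18, also passed 0.1. The numbers were taken to pair the arrays, though that limit did not single out the pairs of equal number. No label states such a pairing, which was read from the same values, so blocked p-values may be too small.

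Alternatives covered the background correction, scaling, filter, gap, deposited values, replicate block, slide row, prior, array weights and each array left out.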

Additional observations from a re-analysis of the deposited data

How the results depend on the processing

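In place of 78 probes, the rule found 29 after normexp correction (offset 50), 32 with no background correction, 30 in the deposited log2 values and 26 with no scaling, which was added after the data were seen. It found 124 with detection on at least 3 arrays, 192 with no filter, 152 and 25 with a gap of 0.3 and 0.6, and 1148 with any gap. Leaving out 1 array gave 101 to 883, the latter without normoxia 2. The median difference of -0.97 became -0.32 with normexp, -0.66 with no background correction, -0.54 in the deposited values and -0.62 with no scaling, and ran from -1.10 to -0.87 with 1 array left out. The 6 members called, of 8 probes called lower, became 1 of 1 with normexp, 40 of 196 with the replicate block, 2 of 4 with the slide row as a block and 78 of 2619 with array weights, which also called 2397 higher and rested on normoxia 3 (5.08) and hypoxia 3 (6.24). With 1 array left out the members called ran from 2 of 4 without normoxia 3 to 9 of 31 without normoxia 2. Other settings kept these within 1.5 times or the spread. Of 238 values of the 14 named probes, 213 kept sign and call, 7 lost and 15 gained a call, and 3 changed sign, all under normexp: ASCRPR006362 0.14, ASCRPR008396 0.16 and ASCRPR000477 0.011. The replicate block gained the calls of ASCRPR011000, ASCRPR009085 and ASCRPR007710 and changed no other of the 14. Of the 16 probes named after their values were seen it gained 8 calls and lost 0. Of the calls lost, ASCRPR007618 had limma adjusted p = 0.17 with normexp, 0.059 with the slide row and 0.080 without normoxia 3. All arrays shared 1 slide, so the slide itself was not fitted as a block. Low signal limits the size of the differences of dim members.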
